A study of Mus musculus with 10 samples.

Results

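The genes described here are those by which heart muscle takes up and burns its main fuels, in 2 lists, 32 fatty acid genes from the carnitine transferase Cpt1a to the carboxylase Acacb and 23 glucose genes from the transporter Slc2a1 to the glycogen synthase Gys1. Members were found by gene symbol in the annotation of the array's probes. Of the 55 listed genes 48 were measured, 29 of the fatty acid list and 19 of the glucose list, out of 16504 named genes on the arrays. The other 7, Acsl1, Ucp2, Acot2, Gpi1, Pfkfb1, Gapdh and Eno1, were not analysed here. No filter on low values was applied, and none of the 48 had an exact 0 on any array.

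RNA came from segments of the mouse left ventricle, the lateral wall and the septal wall, in 2 settings. The first was 4 dyssynchronous mice, numbered 1, 3, 4 and 5 in the labels and kept apart, whose hearts contracted without coordination between the walls after pacemaker implantation. The second was a control made by pooling RNA of synchronous mice, wall by wall, so that it is 1 sample with no animal-to-animal spread. The labels and design text used here give no strain, age, sex, time after implantation, pacing site or number of pooled mice. Both walls of a heart were hybridised to 1 two-colour array, once with the lateral RNA in Cy5 and once in Cy3, which gave 10 arrays for 4 hearts and 1 pool. The pool's channels carry the names PNS and PNL, whose endings were read as septal and lateral by likeness to 1S and 1L.

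Each value below is a log2 ratio of lateral over septal wall, averaged over the 2 dye orientations. Positive ratios are higher in lateral tissue and negative ones in septal tissue. That direction is likely rather than stated, since it rests on reading the deposited values as the Cy5 over Cy3 ratio, and the log10 base is likewise inferred. The ratios say nothing of how abundant a transcript is. In whole tissue, fewer cells of a type and less RNA per cell cannot be told apart.

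Before the fuel genes, the septal and lateral tissue of the hearts differed in atrial markers. Myl7, the atrial light chain of myosin, was at -5.18, -3.36, -3.53 and -6.10 in hearts 1, 3, 4 and 5, against -0.12 in the pool, so it was far higher in septal RNA of all 4 hearts and near balance in the pool. Its mean was -4.65 with lateral RNA in Cy5 and -4.44 with lateral RNA in Cy3, so both orientations gave 1 sign once turned by the dye labels. The median of 8 atrial markers was -0.70, -0.49, -0.23 and -1.34 in the hearts, against -0.051 in the pool, and 3 of the 8 (Myl7, Myl4 and Dkk3) were septal in every heart. Myl4 and Dkk3 were septal in the pool as well, at -0.47 and -0.59, against means of -2.14 and -2.71 in the hearts. Of the 8 markers 4 were below 0 in the pool and 3 above 0. The part of this difference in the ratios of the fuel genes was not tested.

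As background, an adult heart burns mostly fatty acids and covers the rest with glucose, lactate and ketone bodies. Fatty acids are released from lipoproteins, carried into the cell, attached to coenzyme A, passed into the mitochondrion as carnitine esters and shortened in cycles of beta-oxidation, whose electrons reach the respiratory chain through the electron transfer flavoprotein. Glucose enters through membrane transporters, is phosphorylated and split by glycolysis, and its pyruvate enters the mitochondrion through pyruvate dehydrogenase, which the Pdk kinases switch off. The nuclear receptor PPAR-alpha and its coactivators raise transcription of the fatty acid genes and of Pdk4, and stressed or overloaded hearts are known for a shift toward glucose.

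The proximal promoters of 4 members are shown because these genes carry the contrasts that follow. Pdk4 had the widest spread between hearts, Cd36 lay above the pool on every heart array, and Eno3 and Ldha were among the glycolytic genes with their highest ratio in heart 5. The sequences are the 250 bases before the transcript start from RefSeq on GRCm38.p6, written 5′ to 3′ on the gene's strand. For Ldha, which has 2 windows in the RefSeq table, the first one listed is used. Capitals mark AGGTCA, the hexamer bound by nuclear receptors, and CACGTG, an E-box, each searched on both strands. The windows lie at chr6:5496279-5496528 on the minus strand, chr5:17835897-17836146 on the minus strand, chr11:70656926-70657175 on the plus strand and chr7:46845554-46845803 on the plus strand.
Pdk4: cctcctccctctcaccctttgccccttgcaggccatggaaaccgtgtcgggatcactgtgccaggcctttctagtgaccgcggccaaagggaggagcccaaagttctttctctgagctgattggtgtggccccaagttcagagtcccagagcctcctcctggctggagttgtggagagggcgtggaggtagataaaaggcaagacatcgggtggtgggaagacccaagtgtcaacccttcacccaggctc
Cd36: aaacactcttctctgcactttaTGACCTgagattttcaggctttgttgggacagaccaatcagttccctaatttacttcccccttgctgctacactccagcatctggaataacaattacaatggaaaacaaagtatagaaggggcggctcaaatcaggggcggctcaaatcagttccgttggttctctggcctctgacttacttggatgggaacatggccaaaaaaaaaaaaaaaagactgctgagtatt
Eno3: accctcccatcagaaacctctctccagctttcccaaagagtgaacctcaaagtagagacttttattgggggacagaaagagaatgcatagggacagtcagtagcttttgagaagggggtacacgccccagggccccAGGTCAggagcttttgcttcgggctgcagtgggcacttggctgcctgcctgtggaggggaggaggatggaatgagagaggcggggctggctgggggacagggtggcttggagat
Ldha: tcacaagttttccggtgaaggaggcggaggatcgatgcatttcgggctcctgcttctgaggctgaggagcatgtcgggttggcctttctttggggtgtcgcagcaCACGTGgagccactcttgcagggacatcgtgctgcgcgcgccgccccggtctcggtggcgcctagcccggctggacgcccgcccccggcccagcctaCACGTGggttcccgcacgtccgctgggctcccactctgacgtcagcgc
Among the 48 listed members with a RefSeq window, 6 of 26 fatty acid genes (23.1%) and 3 of 22 glucose genes (13.6%) held AGGTCA, against 13.8% of the 27025 genes with a window. The E-box CACGTG was in 0 of 26 fatty acid genes and in 4 of 22 glucose genes (18.2%), against 6.05% of all. These are matches of letters and not binding sites. A window without a match lacks those letters only.

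Wall differences of the fuel genes were small in the dyssynchronous hearts. The mean of the 4 hearts ran from -0.28 for Gys1, which makes glycogen, to 0.11 for Pfkfb2, which makes the activator of phosphofructokinase. The middle member lay only 0.035 from 0, against 0.091 over all named genes, and the median spread between hearts was 0.082 (SD, n = 4) against 0.23. Citric acid cycle genes had like values, 0.041 and 0.071. The difference between the arrays of a heart, divided by 2, had a median SD of 0.059 for the members against 0.27 over all genes. Measuring error was thus also lower for the members, and its part in this contrast was not tested. In limma fitted over all 16504 genes, 0 members passed at an adjusted p under 0.05, where 0% of all genes passed. At an unadjusted p under 0.05 the count was again 0 of 48, against 5.66% of all genes. The lowest adjusted p of a member was 0.797. Myl7, with a mean of -4.54 in the hearts, had an adjusted p of 0.732 in the same fit. Failing this test therefore does not show that a wall difference is small.

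The intervals put a bound on these differences. For 47 of 48 members the 95% interval of the mean lay within 1.5-fold in either direction, as for 70.8% of all genes. The exception was Gys1. The lower measuring error of the members, given above, was not taken out of this comparison with all genes. These intervals are per gene and not adjusted for the number of genes, and the number of arrays limits them. With 4 animals, 0 members passed 1.5-fold on one side throughout, where 0.0242% of all genes did on the lateral side and 0.0848% on the septal side.

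**Figure D1:**
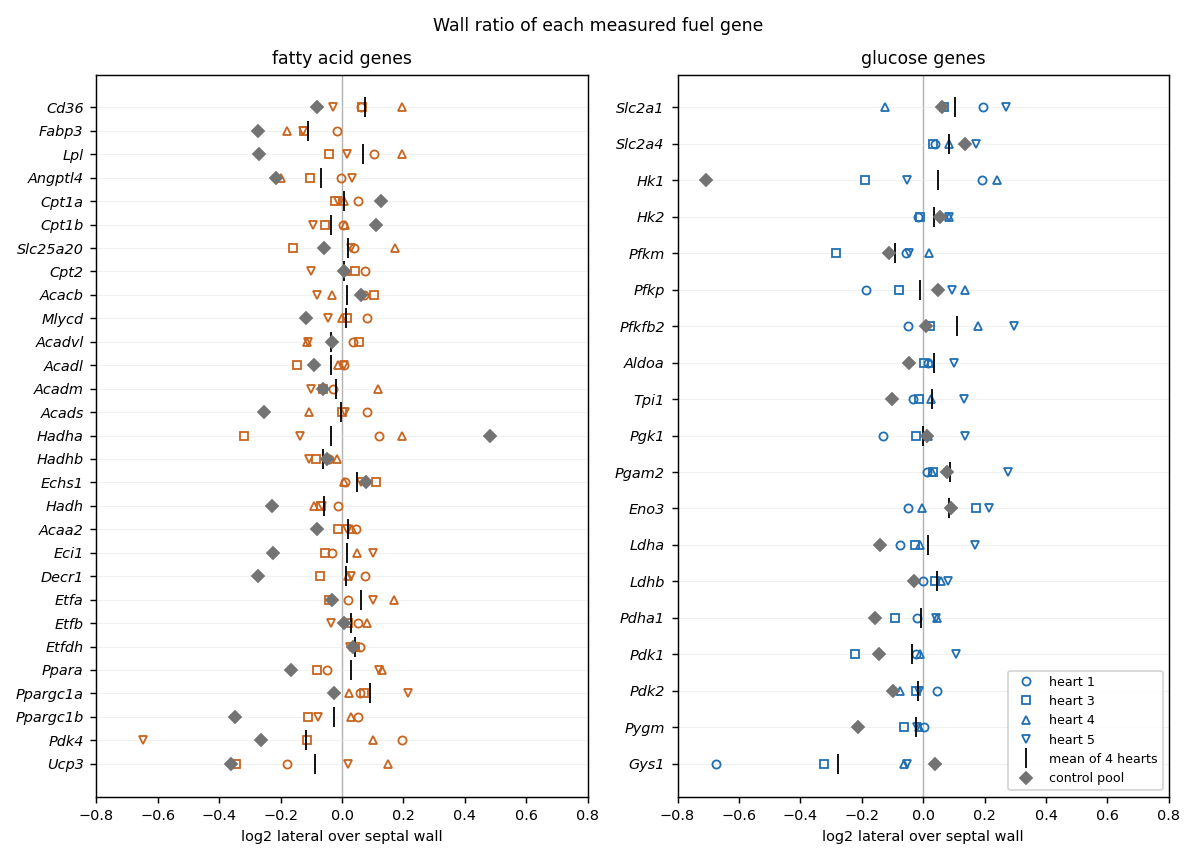
Log2 ratio of lateral over septal wall for each of the 48 measured genes, with fatty acid genes on the left and glucose genes on the right. Open symbols are the 4 dyssynchronous hearts, the black stroke is their mean and the grey diamond is the control pool. Most hearts lie close to 0, Pdk4 of heart 5 and Gys1 of heart 1 lie farthest toward the septal wall, and the pool lies to the left of all 4 hearts for 22 genes.

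Fatty acid uptake genes were near balance between the walls in the hearts. Cd36, the membrane carrier of long-chain fatty acids, was at 0.063, 0.064, 0.20 and -0.028 in hearts 1, 3, 4 and 5, against -0.080 in the pool. Fabp3, the fatty acid binding protein of heart muscle, was at -0.015, -0.12, -0.18 and -0.13 in the hearts, against -0.27 in the pool. All 4 hearts were therefore below 0 for Fabp3 and still above the pool, with a mean of -0.11 ± 0.069 (SD, n = 4, adjusted p 0.797). Lpl, the lipase that frees fatty acids from lipoproteins at the capillary wall, was at 0.10, -0.042, 0.20 and 0.016 in the hearts, against -0.27 in the pool. Angptl4, its secreted inhibitor, was at -0.0028, -0.10, -0.20 and 0.031 in the hearts, against -0.22 in the pool. The pool was lower than every heart for each of these 4 genes, and the hearts did not share a sign except for Fabp3.

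Genes of the carnitine shuttle and of malonyl-CoA had means between -0.035 (Cpt1b) and 0.019 (Slc25a20) in the hearts. Cpt1b, the muscle form of the transferase that admits fatty acids to the mitochondrion, was at 0.0017, -0.054, 0.0081 and -0.095 in the hearts, against 0.11 in the pool. Cpt1a, the liver form, was read by 10 probes and averaged 0.0061 ± 0.034 in the hearts (SD, n = 4), against 0.13 in the pool. These were 2 of the 3 fatty acid genes whose 4 hearts all lay below the pool. The carnitine carrier Slc25a20 averaged 0.019 ± 0.14 and the inner-membrane transferase Cpt2 0.0072 ± 0.077, with hearts on both sides of 0. Of the enzymes that set malonyl-CoA, the inhibitor of the shuttle, Acacb makes it and averaged 0.015 ± 0.086, while Mlycd removes it and averaged 0.014 ± 0.053. Pool ratios were 0.060 for Acacb and -0.12 for Mlycd.

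Beta-oxidation enzymes were close to balance in the hearts and mostly septal in the pool. The 11 genes had means between -0.062 (Hadhb) and 0.047 (Echs1) in the hearts, and their median was 0.0082, -0.061, 0.0073 and 0.0058 in hearts 1, 3, 4 and 5, against -0.081 in the pool. Hadhb, the thiolase subunit of the trifunctional protein, was at -0.041, -0.086, -0.015 and -0.11 in the hearts, against -0.050 in the pool. Hadh, the short-chain hydroxyacyl-CoA dehydrogenase, was at -0.012, -0.067, -0.091 and -0.065 in the hearts, against -0.23 in the pool. Both were below 0 in 4 of 4 hearts, with the lowest heart at -0.11 and -0.091. Echs1, the enoyl-CoA hydratase, was above 0 in 4 of 4 hearts at 0.0082, 0.11, 0.0073 and 0.063, against 0.078 in the pool. None of the 3 passed (adjusted p 0.816, 0.816 and 0.839).

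The acyl-CoA dehydrogenases, which take the first oxidation step for chains of falling length, had means of -0.035 (Acadvl), -0.037 (Acadl), -0.019 (Acadm) and -0.0047 (Acads). Their hearts lay between -0.15 (Acadl in heart 3) and 0.12 (Acadm in heart 4), and only Acads had all 4 hearts above the pool, which was at -0.25. Hadha, the partner of Hadhb in the trifunctional protein, was far less steady, at 0.12, -0.32, 0.20 and -0.14 in the hearts, against 0.48 in the pool. Its pool arrays were 0.95 and 0.013 with the lateral RNA in Cy5 and in Cy3, so that its high pool value comes from 1 array of the pair. Its arrays in heart 5 were -0.49 and 0.21, while those of hearts 1, 3 and 4 shared a sign. The SD between hearts was 0.24 for Hadha, against 0.22 for the difference between the arrays of a heart divided by 2. The 2 subunits of 1 protein complex did not have matching ratios here, but Hadha is read by a single probe. Whether the mismatch exceeds measuring error was not tested.

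Acaa2, the mitochondrial thiolase, allowed a check of the measuring error because 10 probes with 1 accession read it. Its mean was 0.020 ± 0.025 in the hearts (SD, n = 4), against -0.081 in the pool, and all 10 probes, averaged over both dye orientations, were below 0 in the pool. The pool arrays of Acaa2 were 0.027 and -0.19 with lateral RNA in Cy5 and in Cy3. Its pool value below 0 therefore comes from 1 array of the pair, which all 10 probes share. The SD among these 10 probes on 1 array had a median of 0.053 over the 10 arrays. For Cpt1a the same figure was 0.21, so a single spot reads Acaa2 more steadily than Cpt1a. Eci1, the isomerase for unsaturated chains, was at -0.031, -0.054, 0.048 and 0.10 in the hearts, against -0.22 in the pool. Decr1, the reductase for polyunsaturated chains, was at 0.074, -0.070, 0.019 and 0.029 in the hearts, against -0.27 in the pool. Both had every heart above the pool.

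Electron transfer genes were slightly toward the lateral side. Etfdh, the dehydrogenase that hands electrons to ubiquinone, was at 0.059, 0.043, 0.045 and 0.025 in the hearts, against 0.036 in the pool, and was above 0 in 4 of 4 hearts. Its flavoprotein subunits Etfa and Etfb averaged 0.062 ± 0.093 and 0.029 ± 0.050 in the hearts, against -0.032 and 0.0057 in the pool. The even values of Etfdh rest on unlike arrays: the mean was 0.20 with lateral RNA in Cy5 and -0.12 with lateral RNA in Cy3.

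Pdk4, the kinase that shuts off pyruvate dehydrogenase when fatty acids are burned, had the widest spread between hearts of any member. It was at 0.20, -0.11, 0.10 and -0.65 in hearts 1, 3, 4 and 5, against -0.26 in the pool. Heart 5 was septal by 1.57-fold, hearts 1 and 4 were lateral and heart 3 was slightly septal. The mean of -0.12 ± 0.38 (SD, n = 4) therefore lay near heart 3 alone and does not describe hearts 1, 4 and 5 (95% interval -0.54 to 0.31, adjusted p 0.869). Both arrays of a heart gave nearly the same Pdk4 value: in heart 5 they were -0.67 with lateral RNA in Cy5 and -0.62 with lateral RNA in Cy3, and in heart 1 they were 0.18 and 0.22. To put a number on this, the SD between hearts was divided by the SD of the dye part of the same hearts, taken as the difference between the arrays of a heart divided by 2, and the result is near 1 when hearts differ no more than repeat arrays do. The ratio was 19.50 for Pdk4, higher than in 99.95% of all genes, against a median of 1.21 over the members and 0.96 over all genes. This measure was chosen after the values were seen. Without heart 5 the mean of Pdk4 was 0.061, on the lateral side.

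Ppara and its coactivators showed other patterns than Pdk4. Ppara, the nuclear receptor for fatty acids, was at -0.049, -0.080, 0.13 and 0.12 in the hearts, against -0.17 in the pool. Ppargc1a, its coactivator and a driver of mitochondrial genes, was at 0.058, 0.071, 0.024 and 0.22 in the hearts, against -0.026 in the pool, and was above 0 in 4 of 4 hearts (mean 0.092 ± 0.085, adjusted p 0.797). Ppargc1b, a related coactivator, was at 0.051, -0.11, 0.028 and -0.077 in the hearts, against -0.35 in the pool. Each of these 3 genes had all 4 hearts above the pool. The heart mean of Ppargc1a was 0.21 with lateral RNA in Cy5 and -0.023 with lateral RNA in Cy3, and its pool arrays were 0.19 and -0.24. Ucp3, a mitochondrial carrier induced by fatty acids, was at -0.18, -0.35, 0.15 and 0.020 in the hearts, against -0.36 in the pool, but its 2 arrays in heart 1 were -1.07 and 0.71, too far apart for the direction to be read. In heart 5 its arrays were -0.60 and 0.64, likewise of opposite sign.

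**Figure D2:**
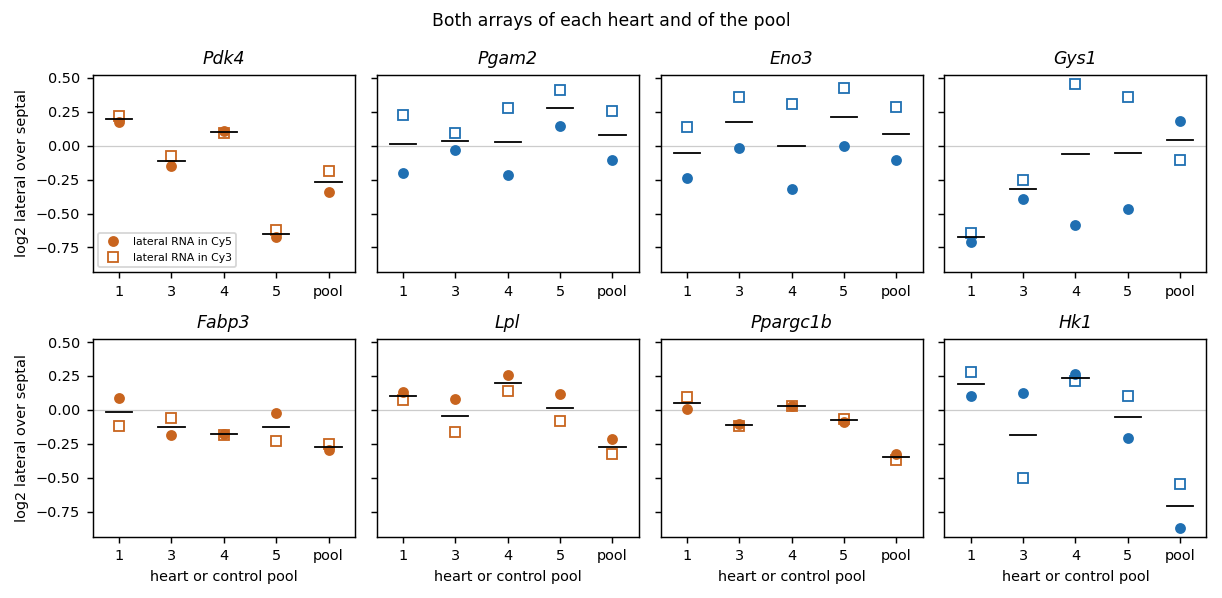
Log2 ratio of lateral over septal wall on single arrays for 8 members, with filled circles for lateral RNA in Cy5, open squares for lateral RNA in Cy3 and black strokes for their mean. Hearts stand left of the pool. The 2 symbols nearly coincide for Pdk4 and Ppargc1b and lie apart for Pgam2 and Eno3, and for Gys1 they coincide in heart 1 but have opposite signs in hearts 4 and 5.

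Both glucose transporters had a mean on the lateral side. Slc2a4, the insulin-responsive transporter of muscle, was at 0.040, 0.034, 0.083 and 0.17 in the hearts, against 0.13 in the pool, and was above 0 in 4 of 4 hearts (mean 0.082 ± 0.065, adjusted p 0.797). Its mean had the same sign in both dye orientations. Slc2a1, the transporter for basal uptake, was at 0.20, 0.067, -0.12 and 0.27 in the hearts, against 0.061 in the pool. Its mean was 0.48 with lateral RNA in Cy5 and -0.28 with lateral RNA in Cy3, so the dye outweighed the wall.

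The hexokinases, which trap glucose in the cell, had unlike ratios in the pool. Hk2, the insulin-regulated muscle form, was at -0.016, -0.011, 0.083 and 0.084 in the hearts, against 0.054 in the pool. Hk1, the widespread form, was at 0.19, -0.19, 0.24 and -0.053 in the hearts, against -0.71 in the pool. The pool arrays of Hk1 were -0.87 and -0.55, both below all 8 heart arrays. Hearts minus pool was 0.75 for Hk1, with a 95% interval of 0.19 to 1.32 and 4 of 4 hearts above the pool, and it did not pass over all genes (unadjusted p 0.0195, adjusted p 0.956). Hk1 was the 1 member at an unadjusted p under 0.05 for this difference, where 4.74% of all genes were, so 1 of 48 (2.08%) is no more than the background.

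Of the 10 measured enzymes from phosphofructokinase to lactate dehydrogenase, 8 had their highest ratio in heart 5, the exceptions being Pfkm and Pfkp. This count was made after the values were seen and has no test, and the share of all genes with this pattern was not counted. List medians were also highest in heart 5 for further glucose genes (0.11), ketone and branched-chain amino acid genes (0.12) and further fatty acid genes (0.063). The median of the citric acid cycle genes was highest in heart 4 (0.052, against 0.050 in heart 5). Pgam2, the muscle phosphoglycerate mutase, was at 0.011, 0.033, 0.028 and 0.28 in the hearts, against 0.076 in the pool. Eno3, the muscle enolase, was at -0.050, 0.17, -0.0048 and 0.21 in the hearts, against 0.089 in the pool. Ldha, the lactate dehydrogenase subunit of glycolytic muscle, was at -0.074, -0.026, -0.0090 and 0.17 in the hearts, against -0.14 in the pool. Heart 5 was the highest of the 4 hearts for each of these genes, and the same held for Tpi1, Aldoa, Pgk1, Ldhb and Pfkfb2, though Eno3 was nearly as high in heart 3. Aldoa, the aldolase of muscle, was at 0.016, 0.0027, 0.022 and 0.10 in the hearts, against -0.047 in the pool, and Ldhb, the heart subunit of lactate dehydrogenase, at 0.00017, 0.039, 0.058 and 0.080 against -0.029. Both, like Pgam2, were above 0 in 4 of 4 hearts without passing, with heart 1 of Ldhb barely so (adjusted p 0.872, 0.839 and 0.816).

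Step by step, heart 5 stood at 0.13 for the isomerase Tpi1, 0.14 for the kinase Pgk1, 0.28 for Pgam2, 0.21 for Eno3 and 0.17 for Ldha. The median of the 5 measured genes of lower glycolysis and lactate was -0.050, 0.033, 0.016 and 0.17 in hearts 1, 3, 4 and 5, against 0.013 in the pool. The control enzymes of upper glycolysis were less uniform. Pfkm, the muscle phosphofructokinase, was at -0.056, -0.28, 0.018 and -0.045 in the hearts, against -0.11 in the pool, and Pfkp, the platelet form, averaged -0.0091 ± 0.15. Pfkfb2, the heart form of the enzyme that makes fructose 2,6-bisphosphate, was at -0.050, 0.021, 0.18 and 0.30 in the hearts, against 0.0095 in the pool, and its 2 probes averaged 0.048 and 0.17 over the hearts.

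Genes at the gate to the mitochondrion and of glycogen had pool ratios below the mean of the hearts, with Gys1 as the exception. Pdha1, the catalytic subunit of pyruvate dehydrogenase, was at -0.020, -0.093, 0.044 and 0.042 in the hearts, against -0.16 in the pool. Pdk2, a widespread kinase of the complex, averaged -0.017 ± 0.049 in the hearts against -0.099 in the pool, and Pdk1 averaged -0.037 ± 0.14 against -0.14. Pygm, the muscle phosphorylase that breaks glycogen down, was at 0.0030, -0.064, -0.013 and -0.020 in the hearts, against -0.21 in the pool. Every heart was above the pool for Pdha1, Pdk2 and Pygm.

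Gys1, the muscle glycogen synthase, was at -0.68, -0.32, -0.061 and -0.053 in the hearts, against 0.039 in the pool. It was the member with the mean farthest from 0, -0.28 ± 0.29 (SD, n = 4, 95% interval -0.62 to 0.063, adjusted p 0.797), and was septal in 4 of 4 hearts. Only hearts 1 and 3 were septal on both arrays. In heart 4 the arrays were -0.58 and 0.46 with lateral RNA in Cy5 and in Cy3, and in heart 5 -0.47 and 0.36.

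Set against each other, the fatty acid and the glucose genes did not part in the same direction in every heart. The fatty acid median was 0.045, -0.054, 0.024 and -0.013 in hearts 1, 3, 4 and 5, and -0.080 in the pool. The glucose median was -0.020, -0.022, 0.022 and 0.10 in the hearts, and -0.029 in the pool, while the median of all named genes was within 0.001 of 0 in every heart and in the pool. The fatty acid median minus the glucose median was 0.066, -0.032, 0.0020 and -0.11 in the hearts, a mean of -0.019 ± 0.075 (SD, n = 4), against -0.051 in the pool. The difference was smaller than its spread between hearts, and the pool lay within the range of the hearts. Heart 5 had the largest gap, with glucose genes toward the lateral wall, and heart 1 had the fatty acid genes ahead. Without heart 5 the difference of the medians of the remaining hearts' means was 0.015, against -0.021 with it, and the glucose median was -0.0065 against 0.028. From arrays with lateral RNA in Cy5 alone, that difference was -0.032 for the hearts, against 0.020 for the pool, and from arrays with lateral RNA in Cy3 alone it was 0.045 for the hearts, against 0.0086 for the pool. The sign therefore turned in the pool with either orientation alone, and in the hearts with the second.

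By count, 21, 9, 21 and 14 of 29 fatty acid genes were above 0 in hearts 1, 3, 4 and 5, against 8 in the pool. Of the 19 glucose genes, 8, 7, 12 and 14 were above 0 in the hearts, against 9 in the pool. In the pool 49% of all genes were above 0. In the hearts, 47.5%, 45.5%, 49.3% and 49.1% of all genes were above 0. Across animals, 3 of 29 fatty acid genes were lateral in every heart (Ppargc1a, Echs1 and Etfdh) and 3 septal (Fabp3, Hadhb and Hadh). Among 19 glucose genes, 4 were lateral in every heart (Slc2a4, Pgam2, Ldhb and Aldoa) and 1 septal (Gys1). Of all named genes 7.8% were lateral and 7.63% septal in every heart, so the fatty acid shares, 10.3% each way, lie near that background. The glucose share on the lateral side, 21.1%, lies above it but rests on 4 genes. Of these genes Ppargc1a, Etfdh, Hadh, Pgam2, Ldhb and Aldoa had heart means of opposite sign in the dye orientations. Echs1, Fabp3, Hadhb, Slc2a4 and Gys1 kept their sign, though Hadhb and Gys1 barely so. With lateral RNA in Cy3 these 2 were at -0.0012 and -0.019, against -0.12 and -0.54 with lateral RNA in Cy5. The counts moved when 1 heart was left out, which by itself lets more genes qualify. The fatty acid genes lateral in all remaining hearts were 8 without heart 3 and 7 without heart 5, and the septal glucose genes were 3 without heart 1, 2 without heart 4 and 3 without heart 5. Asked of single arrays, 0 of 48 members had 1 sign on all 8 heart arrays, against 0.648% of all genes on the lateral and 0.685% on the septal side.

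Heart 5 also stood apart in markers of skeletal muscle. Of 13 skeletal muscle markers the median was 0.12, -0.025, 0 and -0.87 in hearts 1, 3, 4 and 5, against 0 in the pool. In heart 5, 3 of the 13 were above 0, and 1 of them, Ckm, is also a ventricular marker. Heart 5 had the lowest atrial median of the 4 hearts as well. The skeletal muscle markers thus lay to the septal side in the heart with the highest median of lower glycolysis and the lowest Pdk4. The part of either list in the values of heart 5 was not tested.

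**Figure D3:**
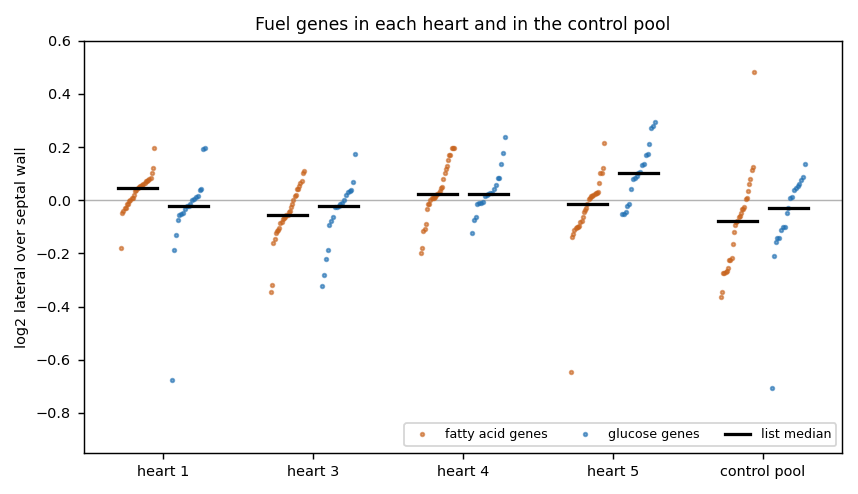
Log2 ratio of lateral over septal wall of each measured member in the 4 dyssynchronous hearts and in the control pool, with members sorted within a column and black bars at the list medians. Fatty acid and glucose medians exchange places between hearts 1 and 5, and the fatty acid genes of the pool lie mostly below 0.

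The second comparison asked whether the hearts' ratios depart from those of synchronous animals. Here more fatty acid genes had every heart above the pool than below it. All 4 hearts were above the pool for 14 of 29 fatty acid genes (48.3%) and below it for 3 (10.3%), against 17.7% and 18.1% of all named genes. For the glucose genes the counts were 8 of 19 above (42.1%) and 1 below (5.26%). The 14 were Cd36, Fabp3, Lpl, Angptl4, Mlycd, Acads, Hadh, Acaa2, Eci1, Decr1, Ppara, Ppargc1a, Ppargc1b and Ucp3, and the 3 below were Cpt1a, Cpt1b and Hadha. The 8 glucose genes above were Hk1, Aldoa, Tpi1, Ldha, Ldhb, Pdha1, Pdk2 and Pygm, and the 1 below was Gys1. The counts share a single pool, so every gene rests on the same 2 arrays. Without heart 5 the glucose count below the pool was 3.

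The side depends on which channel of the pool was lateral. If the pool's channel names stand for the opposite walls, 5 fatty acid genes have every heart above the pool and 15 below, and the glucose counts are 4 above and 7 below. With the deposited values taken as already turned to one wall over the other, the fatty acid counts are 3 above and 8 below and the glucose counts 2 above and 2 below. Under that reading Myl7 would be near -4.65 on the heart arrays of one orientation and as far on the other side of 0 on those of the other, and Myl4, at means of -2.22 and -2.05 after the turn by dye, would likewise change wall between the arrays.

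The departure lay in the pool's own ratios, while the hearts lay about 0. In the pool 17 of 29 fatty acid genes (58.6%) were below 0 on both arrays and 3 above 0 on both, against 17% and 18.7% of all genes. For the glucose genes these counts were 7 and 2 of 19. The median of hearts minus pool was 0.10 over the fatty acid genes, 0.073 over the glucose genes and 0 over all genes. By limma, fitted over all genes, 0 members passed for hearts minus pool at an adjusted p under 0.05 and 1 at an unadjusted p under 0.05, where 0% of all genes passed the adjusted test. The pool counts there as 1 sample that is assumed to vary like 1 heart.

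The farthest of the fatty acid genes by this test were Ppargc1b and Decr1. Ppargc1b lay 0.32 above the pool (95% interval -0.019 to 0.66, unadjusted p 0.0593, adjusted p 1) and Decr1 0.29 above it (95% interval -0.029 to 0.60, unadjusted p 0.066, adjusted p 1), each in 4 of 4 hearts. Of the glucose genes Pygm followed Hk1, at 0.19 above the pool in 4 of 4 hearts (95% interval -0.10 to 0.48, adjusted p 1). For 39 of 48 members the interval of hearts minus pool stayed within 1.5-fold either way, as for 32% of all genes. The members' lower measuring error was not taken out of this comparison either.

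Array by array, 7 members had no overlap between hearts and pool. For Cd36, Fabp3, Lpl, Eci1, Ppargc1b, Hk1 and Pdha1 all 8 heart arrays were above both pool arrays, which held for 1.41% of all genes, and for 0 members all 8 were below both, against 1.21% of all genes. Ppargc1b ran from -0.12 to 0.096 on the heart arrays, against -0.32 and -0.37 on the pool arrays. Fabp3 ran from -0.23 to 0.088 on the heart arrays, against -0.30 and -0.25 on the pool arrays. Within each dye orientation taken alone, every heart array was above the pool array in both orientations for 9 of 29 fatty acid genes (31.0%) and 2 of 19 glucose genes (10.5%), against 3.87% of all genes. The counts below the pool were 1 of 29, Cpt1b, and 0 of 19, against 3.46%.

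Ventricular cardiomyocyte markers lay on the same side in this comparison. Of 12 such markers, 8 had every heart above the pool and 0 every heart below it, against 17.7% and 18.1% of all genes. Their median was 0.014, -0.049, -0.0027 and 0.0019 in hearts 1, 3, 4 and 5, against -0.14 in the pool. In the pool 8 of the 12 were below 0 on both arrays and 0 above 0 on both, against 17% and 18.7% of all genes, with Myh6, the alpha myosin heavy chain, at -0.53 and Ckm, the muscle creatine kinase, at -0.38. Endothelial markers, which bear on Cd36 and Lpl, had every heart above the pool for 3 of 11 and below it for 0, and a pool median of -0.0081. Adipocyte markers had every heart above the pool for 0 of 9, fibroblast markers for 0 of 8, macrophage markers for 0 of 6 and erythroid markers for 0 of 4. Every heart was below the pool for 4 of 9 adipocyte markers, 2 of 8 fibroblast markers, 0 of 6 macrophage markers and 1 of 4 erythroid markers. The part of these markers in the counts of the fuel genes was not tested.

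**Figure D4:**
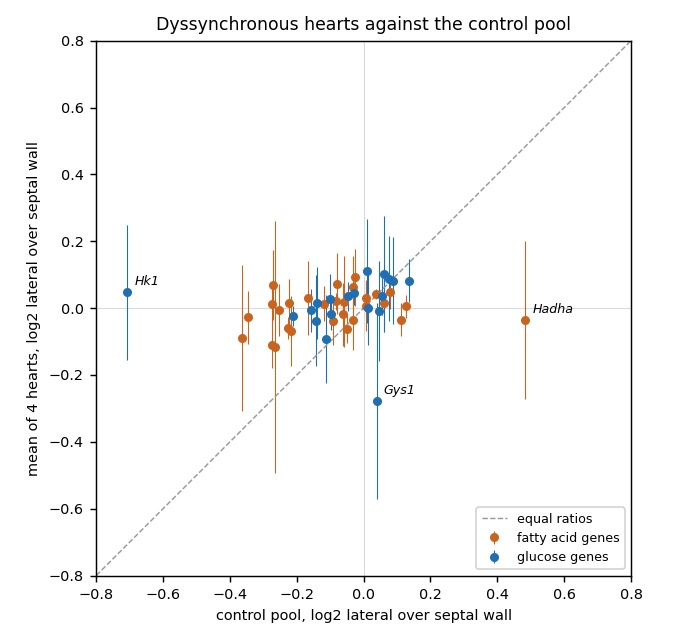
Mean log2 ratio of lateral over septal wall in the 4 dyssynchronous hearts (vertical axis, bars ± SD, n = 4) against the ratio in the control pool (horizontal axis) for each of the 48 measured genes. Points above the dashed line have a higher mean in the hearts. The pool, which is 1 sample, spans -0.71 to 0.48 and the means of 4 hearts span -0.28 to 0.11. Single hearts span -0.68 (Gys1 in heart 1) to 0.30 (Pfkfb2 in heart 5).

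Dye orientation limited how far the direction of a member can be trusted. The mean over the hearts had the same sign in both orientations for 13 of 48 members (27.1%), against 31.3% of all genes. The typical dye effect of a member, the difference between the orientations divided by 2, was 0.083, larger than the typical wall mean of 0.035. Eno3 averaged -0.14 with lateral RNA in Cy5 and 0.31 with lateral RNA in Cy3, and Acadvl averaged -0.20 and 0.13. Fabp3, at -0.073 and -0.15, and Pdk4, at -0.13 and -0.098, kept their sign. A dye effect that is the same on every array cancels in the averages given above.

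Over the whole set of members, the 2 arrays of a heart, turned to lateral over septal, correlated negatively across the 48 members, with Pearson's r of -0.31, -0.19, -0.49 and -0.24 in hearts 1, 3, 4 and 5, against 0.20 in the pool. Across all genes r was -0.30, -0.35, -0.28 and -0.17 in the hearts, against -0.30 in the pool. These are descriptions across genes that share arrays and dye effects. Whether the submitters had turned the values already is not stated, so the likely direction of the ratios rests on the dye labels. After this turn Pdk4 had 1 sign on both arrays of every heart, as the means of Myl7 did in both orientations, while Gys1 had opposite signs on the arrays of hearts 4 and 5.

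**Figure D5:**
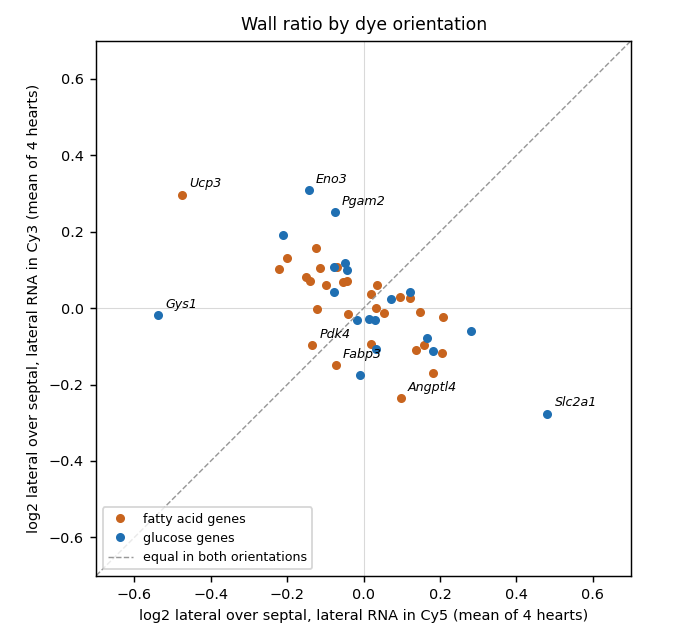
Mean log2 ratio of lateral over septal wall over the 4 hearts with lateral RNA in Cy3 (vertical axis) against the same with lateral RNA in Cy5 (horizontal axis) for the 48 measured genes. Most points lie in the upper left and lower right, where the orientations have opposite signs, and 13 genes keep 1 sign.

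In neighbouring pathways, too, 0 genes of the 4 further lists passed the wall test over all genes, with 1 in each list at an unadjusted p under 0.05, where 5.66% of all genes were. Of 25 further fatty acid genes 5 were lateral and 1 septal in every heart, and of 29 further glucose genes 10 were lateral and 0 septal, against 7.8% lateral and 7.63% septal of all genes. Mpc1, a subunit of the mitochondrial pyruvate carrier, was at 0.18, 0.069, 0.14 and 0.19 in the hearts, against -0.12 in the pool (unadjusted p 0.0437, adjusted p 0.797). Slc2a12, a further glucose transporter, was at 0.25, 0.61, 0.066 and 0.15 in the hearts, against -0.18 in the pool. Both had 4 of 4 hearts on the lateral side and the pool on the septal side. With lateral RNA in Cy5 and in Cy3, the heart mean was 0.15 and 0.14 for Mpc1. For Slc2a12 it was 0.78 and -0.24, of opposite sign.

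Among the other fatty acid genes Fabp4, a binding protein of endothelium and fat, averaged 0.16 ± 0.095 in the hearts against 0.21 in the pool, and Dgat2, which makes triglyceride, averaged 0.11 ± 0.064 against -0.079. In the citric acid cycle 4 of 20 genes were lateral and 0 septal in every heart, led by Sdhd, a subunit of succinate dehydrogenase, at 0.14 ± 0.055 against 0.084, and Sucla2, of succinyl-CoA ligase, at 0.13 ± 0.079 against 0.021. Of 14 genes of ketone and branched-chain amino acid use, 5 were lateral and 1 septal in every heart. Over all genes these shares were 7.8% and 7.63%. Bdh1, which oxidises the ketone body hydroxybutyrate, was at 0.089, 0.25, 0.21 and 0.39 in the hearts, against 0.44 in the pool (unadjusted p 0.0229, adjusted p 0.797), and Mccc2, of leucine breakdown, averaged 0.13 ± 0.060 against -0.29. Every heart was above the pool for 11 of 25, 11 of 29, 10 of 20 and 3 of 14 genes of these lists, against 17.7% of all genes, in the order of further fatty acid, further glucose, citric acid cycle, and ketone and amino acid genes.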

How the data were processed

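Lateral and septal wall RNA of the mouse left ventricle was measured on 10 two-colour arrays, which were read with Agilent Feature Extraction 7.5, per the submitters' processing notes. The deposited values were taken as log10 ratios of Cy5 over Cy3: they are signed and have a median of 0 on every array, but scale, centring and direction are not stated in the labels. Values of -2 were taken as no value. Values were multiplied by 3.32 to log2, signed by the dye labels to lateral over septal, averaged over probes of a gene and over the 2 arrays of a heart or pool, which hold the same RNA and count as 1 sample. Of 22393 features 18218 had 1 symbol, 16 several and 4159 none. The 48 members had 1 probe in 45 cases and 10, 10 and 2 probes for Cpt1a, Acaa2 and Pfkfb2. Exact zeros made up 7.69% to 15.1% of features on an array, with no meaning given, and 0 of the members' values. Channel intensities were not used.

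The 4 hearts and the pool entered 1 linear model per gene over 16504 genes, with moderated variances from limma 3.58.1 under R 4.3.3 and statmod 1.5.0. The average heart was set against 0, and hearts were set against the pool, in two-sided tests with Benjamini-Hochberg adjustment over all genes at 0.05. The pool is 1 sample that is assumed to vary like a heart, and the number of arrays limits the precision. Flipping the signs of 4 hearts exactly allows no two-sided p under 0.125, so no such test was run. Per the labels, the 4 hearts are separate mice. Lists were described by counts and medians. Values of all hearts are given for the members with 1 sign in all 4 hearts (up to 4 highest and 4 lowest of a list by moderated statistic), the 2 farthest from the pool, the 2 with the largest spread and a fixed set, and for others where space allowed. In each further list the 2 genes with the smallest p are named. Members, lists and tests were chosen with earlier results of these data known. The alternatives were other array scalings, each dye orientation alone, single arrays with a dye term, exact zeros as missing, single probes, robust moderation, each heart left out, the hearts alone, other fold limits and other readings of the deposited sign. The fit was tested on simulated data.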

Additional observations from a re-analysis of the deposited data

Results flagged for a closer look

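Chance marks about 1 in 20 sets of 4 hearts as holding a heart far from the rest. Here 50 sets were examined, the 48 members and both list medians, and 2 held such a heart where 2.5 are expected. Pgam2 was at 0.28 in heart 5, with the other hearts between 0.011 and 0.033. Acadl was at -0.15 in heart 3, with the other hearts between -0.015 and 0.0069. In heart 5 the glycolytic genes Eno3, Ldha, Pgk1 and Tpi1 were also the highest of the 4 hearts, while Pfkm and Pfkp were highest in heart 4. In heart 3 the other acyl-CoA dehydrogenases were between -0.061 and 0.054.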

How the results depend on the processing

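With 4 hearts and 1 pool, precision is limited by the number of animals, and signal over background could not be judged from ratios. No member passed a test under any alternative run, and 0 members were beyond 1.5-fold in every heart with either dye orientation alone. No paired analysis was possible because hearts and pool share no animal, while both walls of a heart are already paired on an array. Fitted to single arrays, with terms for dye and a random block for the heart, 20 genes passed for the wall and 3 for hearts minus pool, against 0 in both otherwise, and none was a member. The fitted correlation within a block was -0.049, so that fit treats the 2 arrays of a heart nearly as separate samples though they hold the same RNA. The alternatives on pool sign, on single arrays and within orientations were chosen after seeing the data.

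Counts are given as fatty acid, then glucose. In the fit as reported, 14 and 8 genes had every heart above the pool, 3 and 1 below it, 3 and 4 were lateral and 3 and 1 septal in every heart. With a common spread of arrays, 0 glucose genes were below the pool and 0 septal. With lateral RNA in Cy5 only, the fatty acid median was -0.040, the glucose median of the pool -0.104, 5 glucose genes were above the pool, 8 fatty acid genes were lateral and 7 septal, and 2 glucose genes septal. With lateral RNA in Cy3 only, the glucose median of the pool was -0.107, 7 fatty acid genes were lateral and 5 septal, and 0 glucose genes were below the pool and 3 septal. With each probe as a feature, 23 fatty acid probes were above the pool, 7 below and 5 lateral, as Cpt1a and Acaa2 then count 10 times. With the values taken as already turned, the fatty acid median of the pool was 0.019, 3 and 2 genes were above the pool, 8 and 2 below, 8 fatty acid genes lateral, and 8 and 4 septal. With the sign of the pool turned, its fatty acid median was 0.080 and fatty acid minus glucose 0.051, with 5 and 4 genes above and 15 and 7 below. Within each dye orientation 9 and 2 genes were above the pool and 1 and 0 below, and over all arrays 5 and 2 above and 0 and 0 below. Leaving out 1 heart gave 3 to 8 lateral and 3 to 4 septal fatty acid genes, 4 to 5 lateral and 1 to 3 septal glucose genes, 14 to 19 and 8 to 10 above the pool, and 3 to 4 and 1 to 3 below. The fatty acid minus glucose difference turned its sign in the pool with either dye orientation alone, and in the hearts with lateral RNA in Cy3 only and without heart 5. The cause of these shifts was not tested.

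The sign of the wall mean turned for 14 of 48 members with lateral RNA in Cy5 only, 21 with lateral RNA in Cy3 only, 5 to 8 without 1 heart and 19 with values taken as already turned. For hearts minus pool these numbers were 4, 10, 0 to 5 and 23.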
